A study of Equus caballus with 14 samples.

Results

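LUM (lumican), DCN (decorin), PRG4 (lubricin) and TNFAIP6 (TNF-stimulated gene 6) were followed in mediastinal lymph node RNA from horses with recurrent airway obstruction (RAO, or heaves) and from control horses. They are 4 of the 599 genes that could be named on the array, and they are measured by 13 of its 43603 probes. Members were found by the transcript accession that each probe carries, with 6 probes for LUM, 5 for PRG4 and 1 each for DCN and TNFAIP6. The genes were selected on the difference between the group means of these same arrays, which was already known. That difference is therefore described here, with its error, and was not tested.

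RAO is an asthma-like disease of adult horses in which stable dust and mouldy hay bring on airway neutrophilia and laboured breathing. The study compared 7 heaves horses, which had a history of RAO when stabled, with 7 healthy controls that had stayed well in the same surroundings. All 14 were mixed-breed adult mares and geldings that had been stabled on dusty hay before euthanasia, so the controls had the same exposure. The affected horses were older on average, and age and disease cannot be told apart. Each horse gave 1 lymph node sample, holding cortex and medulla, and 1 one-colour array, with no technical replicate.

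Lumican and decorin are small leucine-rich proteoglycans, secreted proteins that bind collagen fibrils and set their spacing and thickness. Decorin also binds the growth factor TGF-beta. Lubricin is a mucin-like glycoprotein that coats and lubricates joint and other moving surfaces. TNFAIP6 is a secreted hyaluronan-binding protein that TNF and interleukin-1 induce, and it helps move protein chains onto hyaluronan during inflammation. In a lymph node, collagen fibres made by fibroblastic reticular cells form the scaffold on which lymphocytes move. In the horse gene table of RefSeq, LUM and DCN lie next to each other on the same chromosome with 0 genes between them, whereas PRG4 and TNFAIP6 lie on other chromosomes.

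Between 32794 and 40020 probes per array were well above background, and 1439 to 2614 were saturated, which means that the scanner could read no higher. The horses were spread over 4 slides, with both groups on every slide. Slide 1 carried heaves horse 4 beside controls 3 and 5. It was scanned on another day and stood apart. Its arrays correlated at 0.986 to 0.991 with each other and at 0.923 to 0.959 with the rest, and the rest correlated at 0.959 to 0.990 among themselves. All values below are log2 signals, that is, log2 of the spot intensity after quantile normalization, so that a difference of 1 is a doubling. CD2, the only T cell marker that could be located, was well above background on all 14 arrays, and no B cell, fibroblast or reticular cell marker on the lists was analysed here.

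Across the genes, 3 of 4 (LUM, PRG4 and TNFAIP6) had a mean signal at least 2-fold higher in RAO-affected horses, and 12 of their 13 probes did, all but the DCN probe. Of the 38727 probes tested, 1.76% were at least 2-fold higher in that group. The median difference over all of these probes was -0.03. Since the contrast chose the genes, nothing is read from their share. In bulk tissue a change in the number of cells of a type and a change in RNA per cell cannot be told apart.

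**Figure D1:**
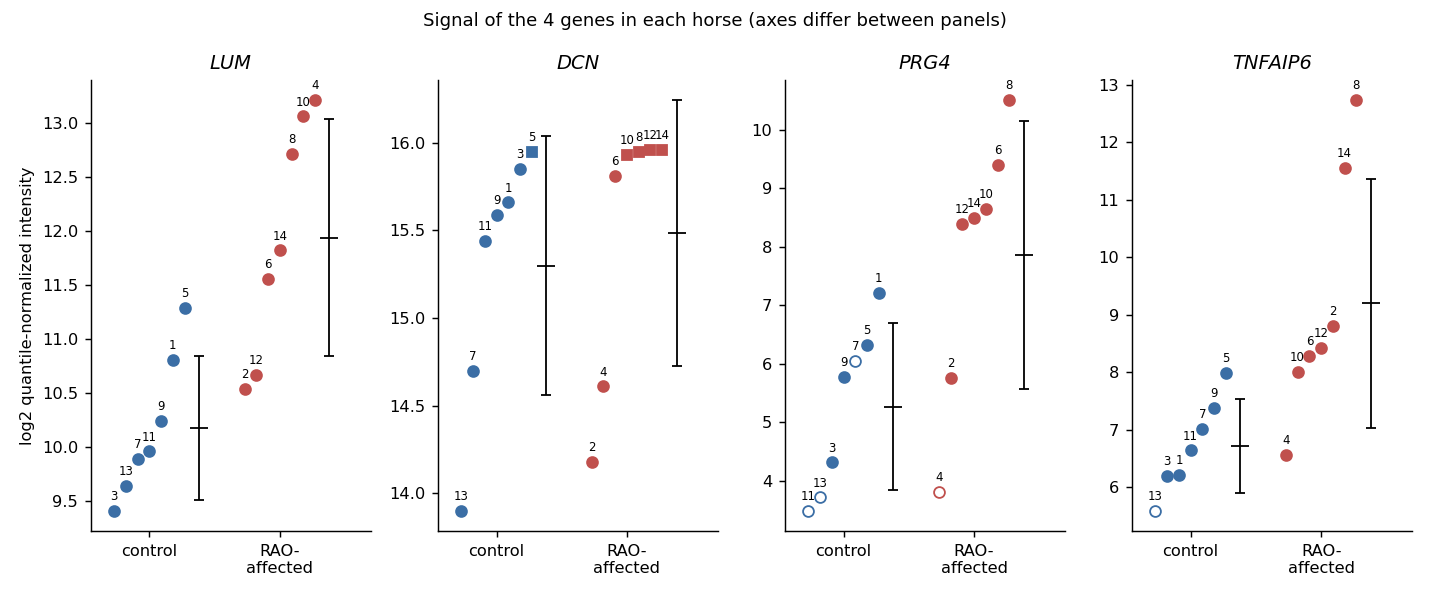
Log2 quantile-normalized intensity (y axis) of the representative probe of LUM, DCN, PRG4 and TNFAIP6 in each of 7 control (blue) and 7 RAO-affected (red) horses, with horse numbers, and with the mean and SD in black. Open circles are not well above background and squares are saturated; 4 of the 7 affected horses are squares for DCN, and horse 4 is the highest affected horse for LUM and the lowest for PRG4 and TNFAIP6.

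LUM encodes lumican, which keeps collagen fibrils thin and evenly spaced. In the control horses its representative probe ranged from 9.41 to 11.29 with a median of 9.96, and in the RAO-affected horses from 10.54 to 13.21 with a median of 11.82. The groups overlapped: 5 of 7 affected horses lay above every control horse, and affected horses 2 and 12, at 10.54 and 10.67, lay below control horses 1 and 5. The mean was 11.94 ± 1.1 (SD, n = 7) with RAO against 10.18 ± 0.66 (SD, n = 7) without. They differed by 1.76 (SE 0.46), which is 3.39-fold, with a 95% interval of 1.72- to 6.70-fold. Among all probes tested, 1.36% had at least 5 of 7 affected horses above every control horse.

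The 6 LUM probes gave similar differences, from 2.85- to 3.45-fold. The 5 probes printed as single spots ranked the horses almost alike, with correlations of 0.99 to 1.00 over the 14 horses. The remaining LUM probe is printed at 5 spots per array and is close to the top of the scanner's range. It was saturated in 3 affected horses (8, 10 and 14), and all of its 5 spots in horse 10 had been marked as outliers and were left out. It gave the smallest difference, 1.51 (SE 0.37, 7 control and 6 affected horses), and its correlation with the other probes was 0.84 to 0.88. Its 5 spots repeated closely, with an SD within an array of 0.0151 to 0.0781.

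Within every slide the affected horses had the higher mean LUM signal. The difference was 2.87 on slide 1, which held 1 affected horse, and 0.70, 2.64 and 1.44 on slides 2, 3 and 4. Slide 3 held 1 control horse, horse 9, so the slide 3 differences of all 4 genes rest on that control. Fitting slide as a block gave 1.74 (SE 0.41), and leaving out any 1 horse kept it between 1.55 and 2.0. No way of processing that was tried moved the LUM fold by more than 1.5 times.

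DCN encodes decorin, lumican's neighbour and close relative, and its signal overlapped between the groups almost completely. The control horses ranged from 13.90 to 15.95 with a median of 15.59, and the affected horses from 14.18 to 15.96 with a median of 15.93. The lowest signals belonged to control horses 13 and 7 and to affected horses 2 and 4. The means were 15.49 ± 0.76 (SD, n = 7) and 15.30 ± 0.74 (SD, n = 7). The difference of 0.19 (SE 0.38) was smaller than the spread between horses, and its 95% interval as fitted ran from 0.647- to 2.0-fold. Saturation caps these values, so the interval does not bound the difference.

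The single DCN probe was at the ceiling of the scanner in many horses. It was saturated in control horse 5 and in affected horses 8, 10, 12 and 14, that is, in 1 of 7 against 4 of 7. Those 4 affected horses read 15.93 to 15.96, and a saturated value is only a lower bound. The part of saturation in the small difference was not tested. The difference was -1.28 on slide 1, -0.18 on slide 2, 0.34 on slide 3 and 1.29 on slide 4, so its direction changed between slides. It was 0.57 (SE 0.41) without slide 1, and -0.05 without control horse 13.

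**Figure D2:**
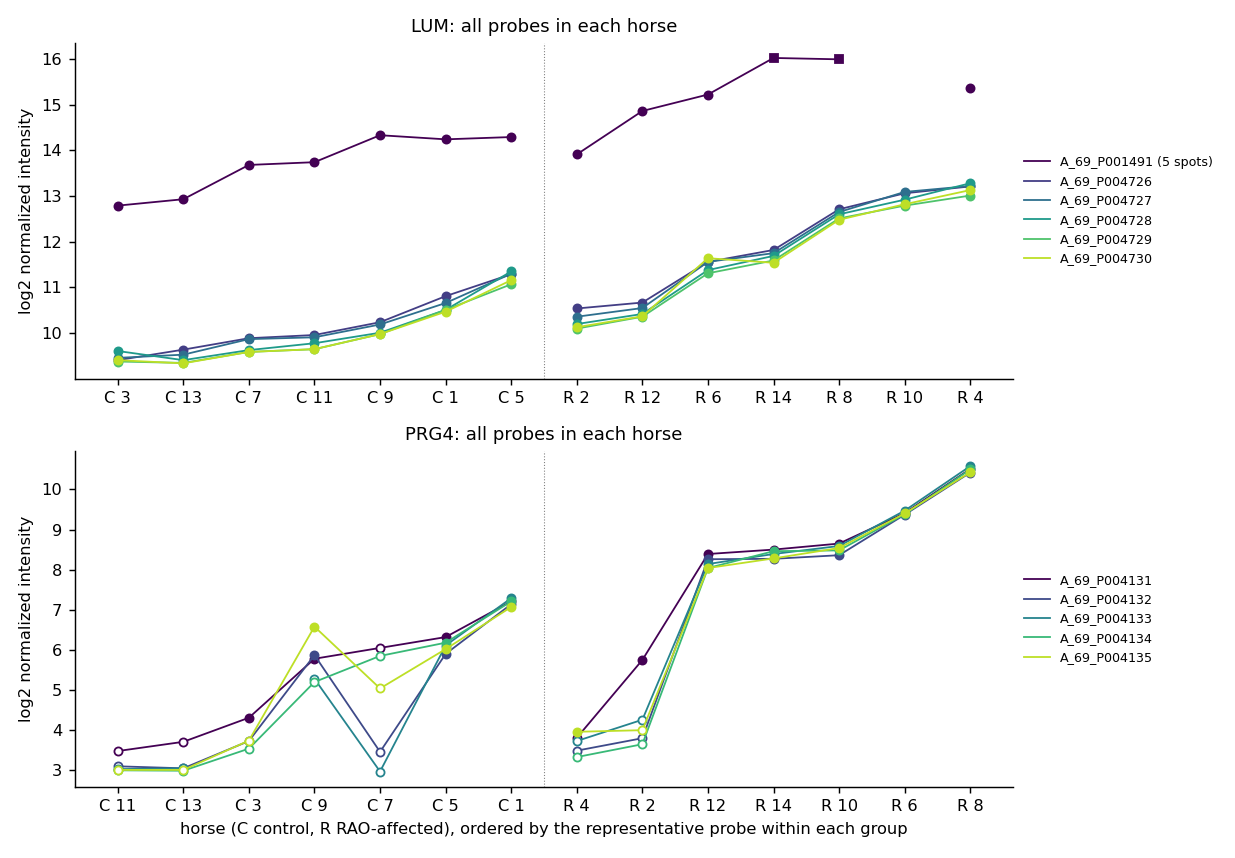
Log2 normalized intensity (y axis) of all 6 LUM probes (top) and all 5 PRG4 probes (bottom) in each horse (x axis), ordered by the representative probe within each group. Squares are saturated and open circles are not well above background; the 5 single-spot LUM probes run together, and the PRG4 probes spread apart only at low signal.

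PRG4 encodes lubricin, which is best known from synovial fluid and cartilage surfaces. In the control horses its representative probe ranged from 3.48 to 7.21 with a median of 5.78, and in the affected horses from 3.81 to 10.51 with a median of 8.50. Affected horses 6, 8, 10, 12 and 14, at 8.39 or more, lay above every control horse, whereas affected horses 2 and 4, at 5.75 and 3.81, lay inside the control range. No horse fell between 7.21 and 8.39. At least 5 of 7 affected horses lay above every control horse for 1.36% of all probes tested. The means were 7.86 ± 2.30 (SD, n = 7) and 5.27 ± 1.43 (SD, n = 7), which differed by 2.59 (SE 0.96), or 6.04-fold with a 95% interval of 1.45- to 25.1-fold.

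Much of the PRG4 signal in the control horses lay at the detection limit. The representative probe was well above background in 4 of 7 control and 6 of 7 affected horses. All 5 probes were well above background in 7 horses (control horses 1 and 5 and affected horses 6, 8, 10, 12 and 14), and none was in 3 horses (control horses 7, 11 and 13). The 5 probes gave 5.87- to 7.85-fold and correlated at 0.95 to 0.99 with each other. One of them had its spot on control horse 3 left out as flagged. With normexp background correction, which compresses low signals, the difference was 1.48 (SE 0.48), or 2.80-fold.

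Slides also gave PRG4 differences of unequal size. The difference was -1.51 on slide 1, where the 1 affected horse was horse 4, and 0.95, 3.80 and 4.85 on slides 2, 3 and 4. Fitting slide as a block gave 2.20 (SE 0.93). The difference was 3.29 (SE 0.88), or 9.78-fold, without slide 1 and 3.27 without affected horse 4 alone.

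TNFAIP6, the hyaluronan-binding protein induced by TNF and interleukin-1, had the most affected horses above every control horse of the 4 genes. In the control horses it ranged from 5.59 to 7.99 with a median of 6.64, and in the affected horses from 6.57 to 12.73 with a median of 8.43. Of these, 6 of 7 affected horses lay above the control range, 3 of 7 control horses lay below every affected horse (5 of 7 for LUM), and affected horse 4 alone lay inside the control range. Horse 10, at 8.0, was barely above control horse 5, at 7.99. Of all probes tested, 0.323% had at least 6 of 7 affected horses above every control horse. The means were 9.20 ± 2.16 (SD, n = 7) and 6.72 ± 0.81 (SD, n = 7), a difference of 2.48 (SE 0.82), or 5.60-fold with a 95% interval of 1.66- to 18.9-fold.

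The affected horses differed widely among themselves in TNFAIP6. Horse 8 read 12.73 and horse 14 read 11.56, whereas horses 2, 6, 10 and 12 lay between 8.0 and 8.81. The SD in the affected horses was 2.67 times that in the control horses, and 3.71% of all probes had a ratio at least that large. For LUM, PRG4 and DCN the corresponding shares were 17.2%, 18.8% and 52.8%, with SD ratios of 1.65, 1.60 and 1.02. The TNFAIP6 probe was well above background in 6 of 7 control horses and in 7 of 7 affected horses. The difference was -0.52 on slide 1 and 1.94, 2.99 and 3.88 on slides 2, 3 and 4. Fitting slide as a block gave 2.24 (SE 0.87), and normexp background correction gave 1.73 (SE 0.65), or 3.32-fold. It was 3.07 (SE 0.87), or 8.42-fold, without slide 1, and 1.90 without affected horse 8.

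**Figure D3:**
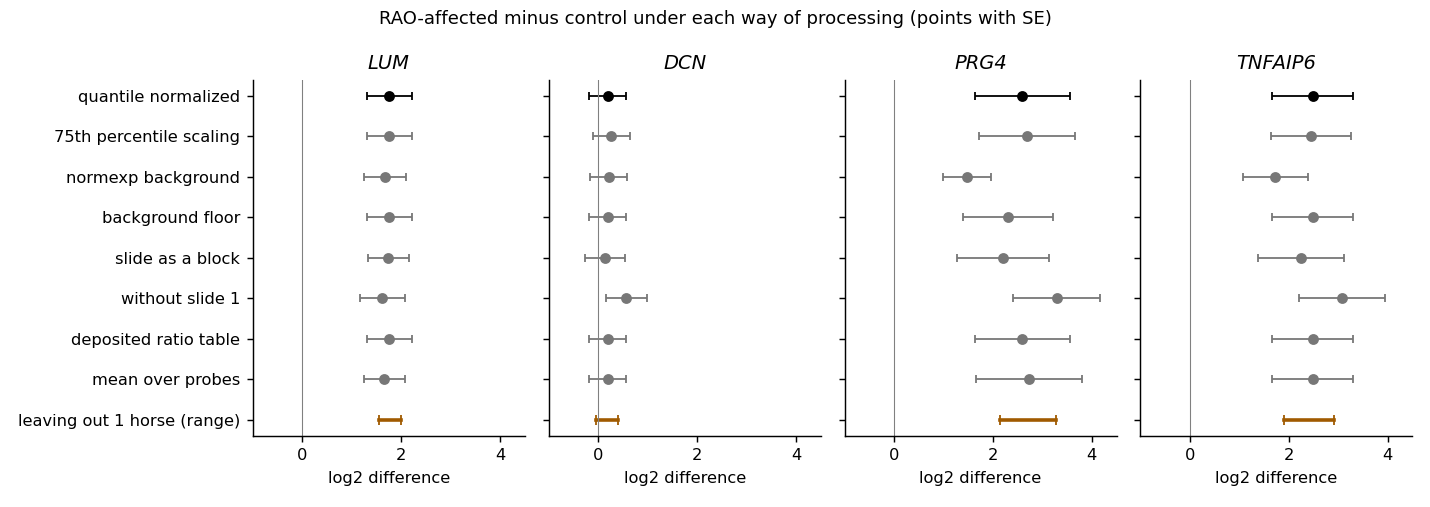
Difference between RAO-affected and control horses (x axis, log2, affected minus control; points with SE from the fit across all probes) for the 4 genes under each way of processing (y axis), with the range over leaving out each horse as an orange line. Leaving out 1 horse keeps LUM between 1.55 and 2.0, the DCN range crosses 0, and normexp background correction gives the smallest PRG4 and TNFAIP6 differences, 1.48 and 1.73.

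The 4 genes did not rank the affected horses in the same order. Affected horse 8 ranked 1 of all 14 horses for PRG4 and TNFAIP6 and 3 for LUM, and affected horse 14 ranked 4 for LUM and PRG4 and 2 for TNFAIP6. Both were among the 5 horses saturated for DCN, whose order cannot be known. By the representative probe horse 4 had the highest LUM signal of all 14 horses, yet it ranked 12 for DCN and 11 for TNFAIP6. The 5-spot LUM probe put horse 4 lower, at 15.36, against 15.99 and 16.02 for horses 8 and 14, both saturated. The representative PRG4 probe of horse 4 was not well above background, and horse 4 is the only affected horse on slide 1. Horse 2 ranked 3 for TNFAIP6 but 13 for DCN, 10 for PRG4 and 9 for LUM. Control horse 13 ranked 13 for LUM and 14 for DCN, and it was not well above background for PRG4 or TNFAIP6.

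Whether horses with more of one gene than their group also had more of another was tested on the deviations from the group means, which the choice of genes did not use. There were 6 pairs, and p-values come from permutation tests within groups (two-sided, 100000 resamples, Benjamini-Hochberg over the 6 pairs). No pair passed after adjustment. The highest correlation was that of DCN with PRG4, at r = 0.66 (permutation p = 0.0129, adjusted p = 0.0773, n = 14) and Spearman's rho = 0.53 (permutation p = 0.0598, adjusted p = 0.359). Within the 7 affected horses it was 0.86 (exact permutation p = 0.0417, adjusted p = 0.25) and rho was 0.36, and within the 7 control horses r was 0.39 (exact permutation p = 0.403). Of the DCN values behind it, 5 are saturated. After removing slide means as well, the correlation was 0.80 (permutation p = 0.00125, adjusted p = 0.0075). Shuffling was within groups and not within slides, so p-values with slide means removed, here and below, are approximate and may be too small. Without control horse 13 and affected horse 2, the farthest from the DCN median, the correlation was 0.60.

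PRG4 and TNFAIP6 followed at r = 0.61 (permutation p = 0.0543, adjusted p = 0.163) and rho = 0.35 (permutation p = 0.258, adjusted p = 0.475). Without affected horse 4 the correlation was 0.43, and without affected horses 8 and 6, the farthest from the PRG4 median, it was 0.55. With slide means removed it was 0.60 (permutation p = 0.0462, adjusted p = 0.138). DCN and TNFAIP6 had r = 0.43 (permutation p = 0.125, adjusted p = 0.25) and rho = 0.34 (permutation p = 0.227, adjusted p = 0.475). It was 0.45 without control horse 13 and affected horse 2, and 0.39 with slide means removed.

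LUM had the lowest correlations with the other genes over all 14 horses. Its correlation was 0.27 with DCN (permutation p = 0.369, adjusted p = 0.554), 0.17 with PRG4 (permutation p = 0.625, adjusted p = 0.75) and 0.09 with TNFAIP6 (permutation p = 0.788, adjusted p = 0.788). Spearman's rho was 0.15, 0.32 and 0.06 (permutation p = 0.6, 0.317 and 0.85, adjusted p = 0.72, 0.475 and 0.85). Removing slide means gave 0.11, 0.20 and 0.03. These values rested on few horses. Without affected horses 4 and 10, the farthest from the LUM median, the correlation was 0.78 with PRG4, 0.75 with TNFAIP6 and 0.53 with DCN. The LUM values themselves chose these horses, so these correlations are descriptions and no p-value is given for them. Leaving out horses one at a time, the correlation of LUM with PRG4 ran from 0.01 to 0.68. The highest value was that without horse 4, which is likewise a description. Within the control horses LUM and PRG4 correlated at 0.73 (exact permutation p = 0.0663) and within the affected horses at -0.04 (exact permutation p = 0.93), and the difference between these was not tested.

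**Figure D4:**
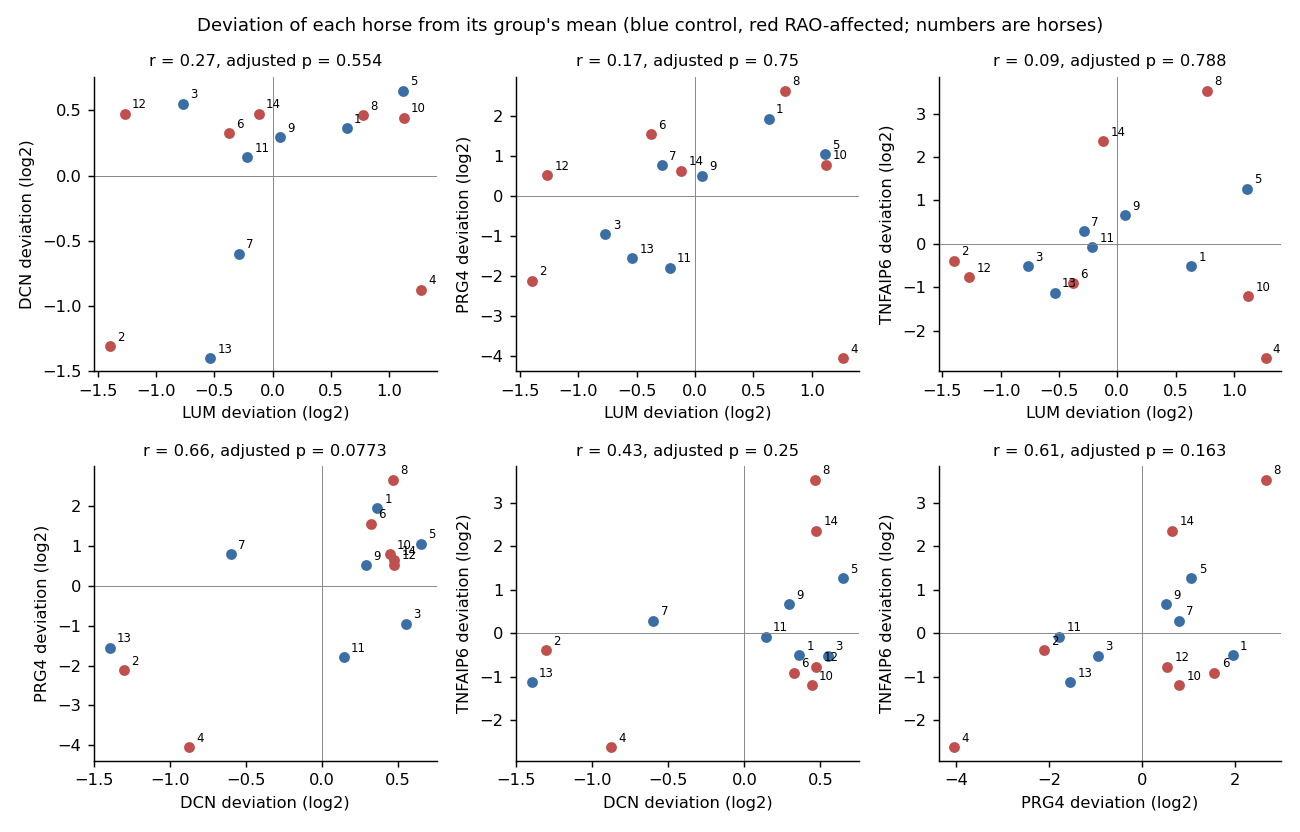
Deviation of each horse from the mean of its group (both axes, log2) for the 6 pairs of genes; blue points are 7 control and red points 7 RAO-affected horses, with horse numbers, r and adjusted permutation p above each panel. Affected horse 4 sits far right and far down in the 3 LUM panels, and DCN with PRG4 has the highest r, 0.66.

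Other genes of the extracellular matrix and of hyaluronan were taken from 6 lists. Of 118 listed genes, 22 could be located, and 16 of the 18 that are not among the 4 genes were tested. MMP3 and MMP13, a stromelysin and a collagenase, were located but stayed below the filter on background. A gene was called where it differed at least 2-fold and had an unadjusted limma p under 0.05. By this rule 2 of the 16 were higher in affected horses and 0 were lower. Over all probes 1.1% were called higher and 0.372% lower. Of the 16 differences 13 were positive, with a median of 0.40, while 43.8% of all probes had a positive difference. After Benjamini-Hochberg adjustment 0 of 38727 probes passed in limma (smallest adjusted p = 0.874) and 0 in the methods' t-test run unpaired, against 2177 (5.62%) at an unadjusted p under 0.05 in limma.

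The 2 called genes were collagen- and gelatin-cutting proteases. MMP1, the interstitial collagenase, differed by 2.63 (SE 1.05, limma unadjusted p = 0.0257, adjusted p = 0.874), with 4 of 7 affected horses above every control horse. Its control horses ranged from 6.12 to 10.34 and its affected horses from 8.34 to 15.87, and its 8 probes gave differences of 1.87 to 2.68. Fitting slide as a block gave 2.31 (limma unadjusted p = 0.0656), which no longer passed. MMP9, a gelatinase stored in neutrophil granules and made by macrophages, differed by 1.32 (SE 0.44, limma unadjusted p = 0.00994, adjusted p = 0.874), with 2 of 7 affected horses above every control horse.

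The closest relatives of LUM and DCN did not pass. FMOD, or fibromodulin, which shares collagen-binding sites with lumican, differed by 0.65 (SE 0.35), and BGN, or biglycan, decorin's nearest relative, by 0.33 (SE 0.23). For FMOD the highest affected horse stayed below the highest control, and its 7 probes gave differences of 0.00 to 0.69. COL5A2, a chain of the collagen that starts new fibrils, differed by 0.81 (SE 0.44). Without slide 1 both FMOD and COL5A2 passed, at 1.11 (limma unadjusted p = 0.00172) and 1.34 (limma unadjusted p = 0.0115).

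Around TNFAIP6, the hyaluronan synthase HAS2 differed by 0.46 (SE 0.52), the hyaluronan receptor CD44 by -0.14 (SE 0.10) and the link protein HAPLN1 by 0.07 (SE 0.73). None of these passed. CD44 was saturated in 5 control and 4 affected horses, and HAPLN1 was well above background in 4 control and 2 affected horses, so both had limited range. The protease inhibitors TIMP1 and TIMP3 differed by 0.55 (SE 0.23) and 0.51 (SE 0.36), and neither was called. TIMP1 was saturated in 1 control and 4 affected horses, so its measured difference is capped. TGFB1, the growth factor that decorin binds, differed by -0.57 (SE 0.50). The cartilage genes COL2A1, COMP and HAPLN1, which are known from the same tissue as lubricin, differed by 0.43, 0.08 and 0.07, and 0 of these 3 passed. The 6 COL2A1 probes ranged from -0.42 to 0.43.

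**Figure D5:**
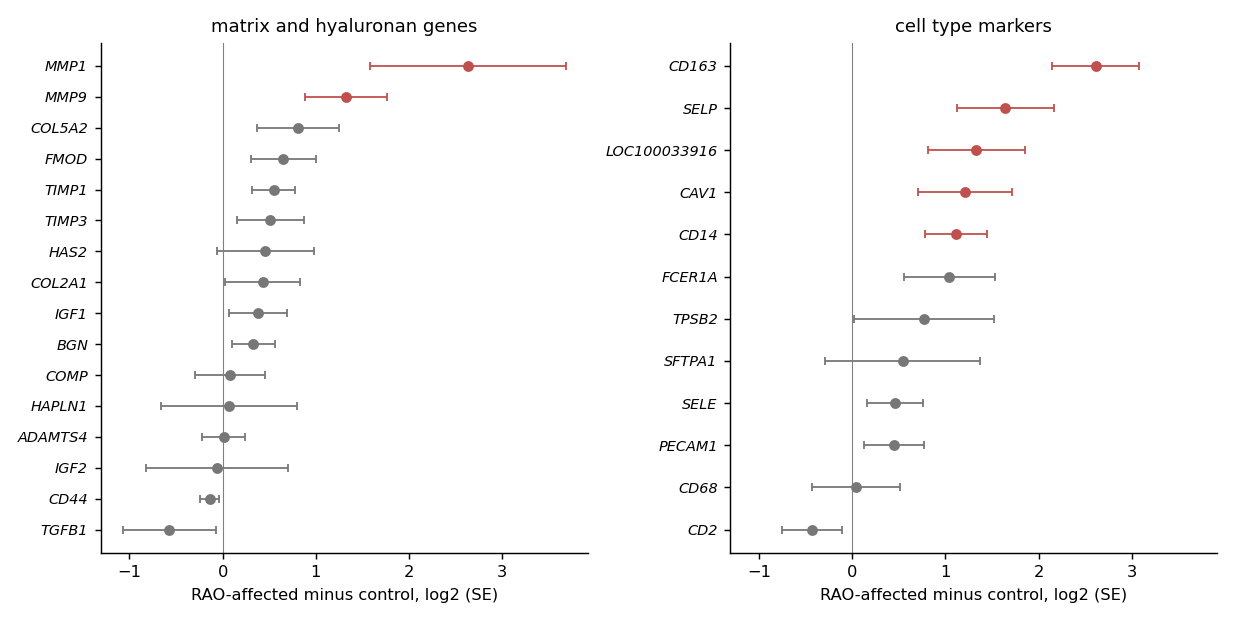
Difference between RAO-affected and control horses (x axis, log2, affected minus control, with SE) for the 16 tested matrix and hyaluronan genes (left) and 12 cell type markers (right). Red points passed 2-fold and an unadjusted p under 0.05; on the left these are MMP1 and MMP9.

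Of the 12 cell type markers tested outside the cartilage list, 5 were called higher in affected horses and 0 lower. The shares over all probes tested were 1.1% and 0.372%. Of 7 macrophage markers 3 were located, and 2 were called higher: CD163, a haemoglobin scavenger receptor, by 2.61 (SE 0.47, limma unadjusted p = 6.9e-05, adjusted p = 0.874) and CD14, the lipopolysaccharide co-receptor, by 1.11 (SE 0.33). CD68 differed by 0.04 (SE 0.47). CD163 was higher in 7 of 7 affected horses than in every control horse, and 0.0284% of all probes had that. The lowest affected horse, at 11.11, was barely above the highest control horse, at 11.08. The mean level of the list ranged from 12.16 to 14.29 in control and from 12.93 to 14.76 in affected horses.

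Of 11 endothelial markers 4 were located, and SELP, or P-selectin, and CAV1, or caveolin, were called higher, by 1.64 (SE 0.52) and 1.21 (SE 0.50). PECAM1 and SELE, the other two, differed by 0.45 (SE 0.32) and 0.46 (SE 0.30), although the 5 SELE probes ranged from -0.07 to 1.46. The mean level of the list ranged from 10.60 to 12.13 in control and from 11.30 to 13.18 in affected horses. CAV1 was 1.16 with slides fitted as blocks (limma unadjusted p = 0.0522) and then no longer passed.

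Among the remaining lists, the mast cell genes TPSB2 and FCER1A differed by 0.77 (SE 0.75) and 1.04 (SE 0.49), and neither passed. Leaving out horses one at a time, FCER1A passed 3 of 14 times, with up to 1.41. CD2 differed by -0.43 (SE 0.32). Of 8 airway and lung epithelial markers 2 were located: SFTPA1, a surfactant protein, differed by 0.54 (SE 0.83), and LOC100033916, for which RefSeq gives the synonym SCGB1A1, a club cell secretoglobin, passed at 1.33 (SE 0.52). The part of these cell types in the LUM, PRG4 and TNFAIP6 differences was not tested.

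The genes most like each of the 4 were ranked by the correlation of deviations from the group means over the 14 horses, among 525 named genes. These values are descriptions, and horses of a slide share its effects. TNFAIP6 was most like SELP (r = 0.88), the neutrophil chemokine CXCL8 (0.87), the granulocyte growth factor CSF3 (0.85), LOC100034237, for which RefSeq gives the synonym IL1B (0.85), and RBMS3 (0.83). Affected horse 8, the highest for TNFAIP6, was also far above the other affected horses for LOC100034237, at 14.37 against 11.51 for the next. With slide means removed as well these correlations were 0.82 to 0.90, and those of the genes named next were 0.81 to 0.95 for DCN, 0.61 to 0.85 for PRG4 and 0.41 to 0.57 for LUM. Within the control horses the correlations with TNFAIP6 were 0.21 (CSF3) to 0.68, and within the affected horses 0.87 to 0.96.

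DCN was most like EPHB1 (0.86), an ephrin receptor, TF (0.82), which encodes transferrin, TIMP3 (0.82), an inhibitor bound to the matrix, CAV2 (0.80) and ANGPTL2 (0.80). Of these, TIMP3 belongs to the matrix lists. PRG4 was most like TRA2B (0.86), a splicing factor, KRT222 (0.84), GALNT1 (0.80), an enzyme that starts mucin-type sugar chains, COL5A2 (0.77) and SLC16A1 (0.74), a lactate transporter. Of the genes reported here, LUM was most like SOD2 (0.72), the mitochondrial superoxide dismutase, NR5A2 (0.64), APEX2 (0.63) and ILT11A (0.63). No gene named here was among the most alike for more than 1 of the 4.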

How the data were processed

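Total RNA of mediastinal lymph nodes from 7 heaves and 7 control horses was hybridized to one-colour Agilent arrays, 1 horse per array. The authors deposited scanner output in which the intensity of each spot was background-subtracted by Feature Extraction (10.5.1.1 per the file headers, 9.1 per the submitters' processing notes). The authors also deposited a table with, for each probe, a ratio to its median over the arrays. It served as an alternative, and its log2 values correlated at 0.999 or more with the scanner values. The methods describe another array format than the files hold, and the methods and the labels give different RNA integrity limits.

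The 1417 control spots and the 19 to 177 flagged spots per array were left out, spots of a probe averaged, and log2 intensities quantile normalized. A probe entered limma (lmFit, eBayes, two-sided, Benjamini-Hochberg) when 4 or more of the 14 arrays had it well above background. The brightest tested probe saturated on no array, or else the brightest, represented a gene. RefSeq accessions (thoroughbred telomere-to-telomere assembly) and the primer table's accessions named 1251 probes (2.87%); other genes were not analysed here. Slides were read from the array barcodes in the scanner output. The number of arrays limits the precision.

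The genes, lists and tests were chosen with earlier results of these data known. Named genes were the 4 genes, the called and the 5 largest uncalled matrix genes, up to 3 markers per list, and the 5 most alike and 3 most opposite genes of each member (1 of these is not reported here); other located list genes are named for their roles. The lists covered small and large proteoglycans, hyaluronan, collagens, matrix proteases, TGF-beta and 11 cell types. Fibroblast, reticular (lymph node stromal), mesothelial, neutrophil and B cell markers were not located. Alternatives were 75th percentile scaling, normexp (offset 50), no filter, a filter at 14 arrays, slide as a block, leaving out slide 1 or each horse, the ratio table, the methods' t-test unpaired, other probe rules and, chosen after seeing the data, a floor at the background. The fit was tested on simulated data with 200 changed probes and no slide effects. After adjustment it recovered 35.5% of them at 2-fold, 76.5% at 4-fold and 90% at 8-fold. Software was limma 3.58.1 and data.table (version 1.17.8) in R 4.3.3, and in Python matplotlib 3.10.9, pandas 2.3.3, scipy 1.17.1 and numpy 2.4.6.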

Additional observations from a re-analysis of the deposited data

Results flagged for a closer look

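In 112 groups of 7 horses, over the probes of the 4 genes, the matrix genes and the genes most and least like them, the highest or lowest horse was set against the others by the gap to its neighbour over the whole range. A share above Dixon's 95% critical value was taken as far, which chance gives in about 1 of 20 groups. In 7 groups 1 horse was far from the others, and none of these groups belonged to LUM, DCN, PRG4 or TNFAIP6.

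Among the affected horses, horse 8 read 15.87 for MMP1 (next 11.54) and 14.37 for LOC100034237 (next 11.51). Horse 4, on slide 1, read 13.33 for TGFB1 (next 11.26) and 13.83 for IGF2 (next 10.76). Horse 6 read 14.98 for TIMP1, below the next at 15.65, with 4 of the 7 affected horses saturated and the range therefore capped. Horse 2 read 7.41 for NNAT (next 6.45). Among the control horses, horse 1 read 8.32 for KRT222 (next 6.85).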

How the results depend on the processing

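No paired analysis was run, because the methods name a paired test without its pairs. Control horses carry odd and heaves horses even numbers, which neither gives the pairs nor excludes them. The LUM, PRG4 and TNFAIP6 differences were positive under the 8 other settings reported for them. Not all of these settings could change the result. TNFAIP6 has 1 probe, so the other probe rules returned the same 2.48, and the brightest PRG4 probe is its representative. The ratio table holds nearly the same values as the scanner output. Differences with no filter, the filter at 14 arrays and the methods' t-test are not reported for these genes. Leaving out 1 horse gave 1.55 to 2.0 for LUM, 2.15 to 3.27 for PRG4, 1.90 to 2.92 for TNFAIP6 and -0.05 to 0.40 for DCN. Correlations under leaving out 1 horse were 0.60 to 0.73 (DCN with PRG4; adjusted permutation p = 0.0456 without control horse 3), 0.43 to 0.69 (PRG4 with TNFAIP6), 0.31 to 0.49 (DCN with TNFAIP6), 0.01 to 0.52 (LUM with DCN), 0.01 to 0.68 (LUM with PRG4) and -0.12 to 0.41 (LUM with TNFAIP6). DCN with PRG4 passed after adjustment with normexp (0.70) and the mean over probes (0.75). It also passed with slide means removed (0.80), where the p-value is approximate. Without the 2 horses farthest from the LUM median, which the LUM values themselves chose, LUM correlated at 0.78 with PRG4 and 0.75 with TNFAIP6. Matrix genes called higher were 2, but 1 with the slide block, 4 without slide 1 and 1 to 3 over leaving out 1 horse (1 without control horse 3 or 13). Over all probes 570 were called (74.7% higher), against 268 (87.7%) with normexp, 299 (81.9%) with the filter at 14 arrays, 1112 (79.0%) without slide 1, 388 to 1120 over leaving out 1 horse, and 62.8% higher without affected horse 4, the highest count. Single calls were lost without control horse 3 or 13 (MMP1), control horse 7 or 13 or affected horse 12 or 14 (CAV1), control horse 7 (CD14, 0.98), and control horse 5 or affected horse 6 (LOC100033916), and gained without control horse 7 (1.41) or affected horse 10 (1.16) or 12 (1.24) for FCER1A and affected horse 4 (1.02) for COL5A2. The cause of these shifts was not tested. DCN is limited by saturation and PRG4 by the background.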

Other observations

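Some named genes ran opposite to the 4 genes over the 14 horses, as correlations of deviations from the group means, given as descriptions. GCSAM, a signalling protein of germinal-centre B cells, was among the 3 most opposite to both PRG4 (-0.75) and TNFAIP6 (-0.77), and its own difference between affected and control horses was -0.56 (SE 0.22). LYRM4, a mitochondrial iron-sulphur cluster protein, was opposite to both as well (-0.77 and -0.77), although with TNFAIP6 it correlated at -0.03 within control and -0.87 within affected horses. The third was LYPLA2 for PRG4 (-0.73) and IL23A, a subunit of interleukin-23, for TNFAIP6 (-0.77).

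LUM ran most opposite to LOC100033916, the gene with the synonym SCGB1A1 (-0.77 over 14 horses, -0.81 within control and -0.76 within affected horses), although both genes had higher means in affected horses. PPP6R3 (-0.75) and AQP10 (-0.73), an aquaporin, followed. For DCN the most opposite genes were NNAT (-0.65), ZNF174 (-0.65) and FUNDC2 (-0.62). Among 38038 probes, 7.10% correlated with PRG4 at 0.5 or more and 9.13% at -0.5 or less. The shares were 3.99% and 5.33% for LUM, 4.55% and 2.59% for DCN, and 5.05% and 5.6% for TNFAIP6.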
